A study of Mus musculus with 3 samples.

Results

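This account describes how hematopoietic progenitors carrying the MLL-ENL fusion differed from Control progenitors in the same way across several blood lineages, and sets the genes that did so against genes that differed in a single lineage. The cells were lineage-negative KIT+ progenitors sorted from the livers of newborn mice (postnatal day 0). They were profiled by CITE-seq, which counts messenger RNA and antibody-bound DNA tags for surface proteins in the same cell. The series holds 3 libraries of 1 group each. Control and MLL::ENL are compared here, and the third library, in which MLL::ENL mice also lacked Skida1, is quoted beside them. The sources used here do not state the driver of the fusion allele, the number and sex of the animals behind a library, or the genotype of the Control mice beyond that name. Xist, an RNA of female cells, was nearly absent from the third library alone. Sex and the loss of Skida1 therefore cannot be told apart in the values quoted from it.

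Cells with at least 5000 gene UMIs (unique molecular identifiers, 1 per captured RNA molecule) and under 10% mitochondrial UMIs were assigned by the summed level of marker genes per 10000 UMIs. Erythroid cells had at least 5 for Klf1, Ermap, Rhd and Rhag. Granulocyte cells had at least 40 for Mpo, Elane, Prtn3 and Ctsg, and megakaryocyte cells at least 4 for Pf4, Itga2b and Gp1bb. Cells that met none of these are called no-lineage cells, and cells that met 2 were dropped. In all 14370 cells of both libraries were used, out of 28544 barcodes in the series. Control gave 3160 erythroid, 499 granulocyte, 94 megakaryocyte and 1868 no-lineage cells, and MLL-ENL gave 3584, 524, 264 and 4377. Every list of 4 values below follows that order: erythroid, granulocyte, megakaryocyte, no lineage.

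MLL, encoded by Kmt2a, is a histone methyltransferase that keeps developmental genes active. ENL, encoded by Mllt1, is a chromatin reader that belongs to complexes releasing RNA polymerase II into elongation. Their fusion occurs in acute leukemia of infants, and its best known targets are the HoxA genes and their partner Meis1. Newborn liver is still a blood-forming organ, so erythroid, granulocyte and megakaryocyte precursors can be seen side by side in it.

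With 1 library in each group, there is no replicate and no test between genotypes. Differences between the libraries and differences between the genotypes cannot be told apart. Intervals are exact 95% intervals that cover counting error only. The UMIs of each lineage were summed within a library and expressed as CPM, the count in each 1000000 gene UMIs of that sum. A log2 ratio is that of CPM + 1 in MLL-ENL over CPM + 1 in Control, and a fold is the plain ratio of CPM. A gene was compared where it reached 10 CPM in either library in every lineage, which held for 6652 genes outside the 11 markers of the lineage rule. Because a cell sort and a fixed number of captured cells lie between tissue and library, fewer cells of a kind within a lineage and less RNA per cell cannot be told apart.

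The libraries differed in depth and make-up. Median UMIs per cell were 37938, 25164, 19021.5 and 16028.5 in Control and 30519, 16252, 14132.5 and 13548 in MLL-ENL. Ribosomal protein genes held 26.1% to 28.8% of UMIs in the lineages of Control and 31.9% to 33.7% in those of MLL-ENL. In the MLL-ENL library 3122 of 11910 barcodes did not pass the filters, against 439 of 6091 in Control. Of the barcodes, 17 occurred in both libraries, and 12 of them passed into lineages in both. The median gene was slightly lower in MLL-ENL in all lineages, with log2 ratios of -0.13, -0.20, -0.16 and -0.15. Of all 6652 genes 43.8% had a ratio below 0 in all 4 lineages and 16.2% one above 0 in all 4, and counts by sign below are to be read against these shares. The part of these features in the results below was not tested beyond the alternatives given in the closing section.

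The lineage names were checked with 8 further markers each that the rule did not use. In Control, 7 of 8 erythroid, 8 of 8 granulocyte and 8 of 8 megakaryocyte markers were highest in the lineage of their name, and in MLL-ENL 7, 7 and 8 were. Of 8 stem and multipotent markers, 5 in Control and 4 in MLL-ENL were highest in no-lineage cells. Those cells also held erythroid markers, at a summed 699.9 CPM in Control and 762 CPM in MLL-ENL, so they are a mixture and not a stem cell population. Granulocyte cells also held the 8 basophil and mast cell markers, at a summed 364 CPM in Control and 494 CPM in MLL-ENL. The granulocyte markers summed to 958 and 614 CPM there. The make-up of the granulocyte group may thus differ between the libraries, and its part was not tested. Macrophage markers summed to between 2.81 and 24.1 CPM in the lineages of Control and between 1.12 and 4.56 CPM in those of MLL-ENL.

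Skida1, the gene removed in the third library, served as a check of the labels. It stood at 0.13, 0.074, 0.51 and 0.70 CPM in Control and at 2.20, 6.56, 10.3 and 8.16 CPM in MLL-ENL. In the Skida1-deleted library it stood at 0.21, 0.28, 0.96 and 0.81 CPM, near Control. The MLL-ENL level was thus above both other libraries in each lineage, by folds over Control of 16.7 (10.2 to 29.1) in erythroid cells and 11.6 (7.67 to 18.5) in no-lineage cells. In granulocyte and megakaryocyte cells Control held 1 UMI each, and the folds of 88.5 (15.3 to 3553) and 20.1 (3.41 to 812) rest on it. Skida1 was too low in erythroid, granulocyte and no-lineage cells to enter the gene comparison. Kmt2a and Mllt1, whose counts do not separate the fusion from the normal transcripts, had log2 ratios of -0.29, 0.26, -0.32 and -0.31 and of 0.09, -0.28, -0.60 and -0.19.

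A small set of genes was at least 2-fold different the same way in all 4 lineages. It held 39 genes that were higher in MLL-ENL, or 0.586% of the 6652, and 15 that were lower, or 0.225%. The counting interval of the fold excluded 1 in every lineage for all 39 and all 15, and lay wholly past 2-fold in every lineage for 23 and 5 of them. The genes were picked on the same counts, so these intervals describe counting error and are no separate support. Within single lineages, 1.23%, 1.1%, 1.61% and 1.89% of genes were at least 2-fold higher, and 1.32%, 2.6%, 2.87% and 2.3% at least 2-fold lower. Which direction held more genes depended on the scaling. With CPM as it stands, 82, 73, 107 and 126 genes were higher and 88, 173, 191 and 153 lower, while ratios centered on the median gene gave 128, 156, 178 and 174 higher and 53, 64, 91 and 59 lower. Of the genes at least 2-fold higher in erythroid, granulocyte, megakaryocyte and no-lineage cells, 47.6%, 53.4%, 36.4% and 31.0% belonged to the shared set. For genes at least 2-fold lower those shares were 17%, 8.67%, 7.85% and 9.80%. In each lineage the shared set was a larger part of what was higher than of what was lower.

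**Figure D1:**
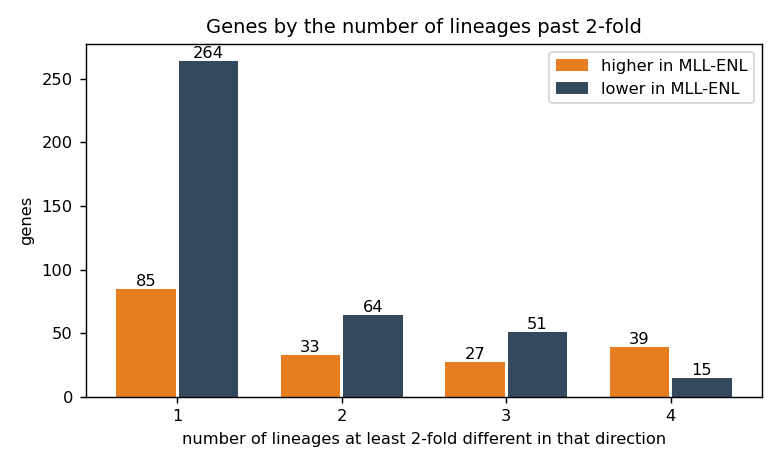
Number of genes (vertical axis) at least 2-fold higher (orange) or lower (dark) in MLL-ENL than in Control, by the number of lineages in which they were (horizontal axis), out of 6652 genes. Among higher genes 85 passed in 1 lineage and 39 in all 4, and among lower genes 264 passed in 1 and 15 in all 4.

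Most genes past 2-fold passed in 1 lineage: 85 of the higher and 264 of the lower genes did, while 33 and 64 passed in 2 lineages and 27 and 51 in 3. Of those 85 higher genes, 70 had a ratio above 0 in all 4 lineages, where 16.2% of all genes did, and of the 264 lower genes 240 had one below 0 in all 4, where 43.8% did. Having passed in 1 lineage fixes 1 of these 4 signs. At the threshold itself, Rpl36, Per1 and Hist1h2bn lay just inside with a smallest log2 ratio of 1.002, 1.01 and 1.01. Dpm3, Snrpg and Slirp lay just outside at 0.996, 0.98 and 0.98. On the lower side Mlycd lay just inside at -1.003 and Fbxl15 just outside at -0.997.

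The named genes below are the 12 highest and 11 of the 12 lowest by the lineage where the ratio was smallest in size. This naming omits sex-linked genes, unnamed gene models and ribosomal protein genes, and the last are given as a group.

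**Figure D2:**
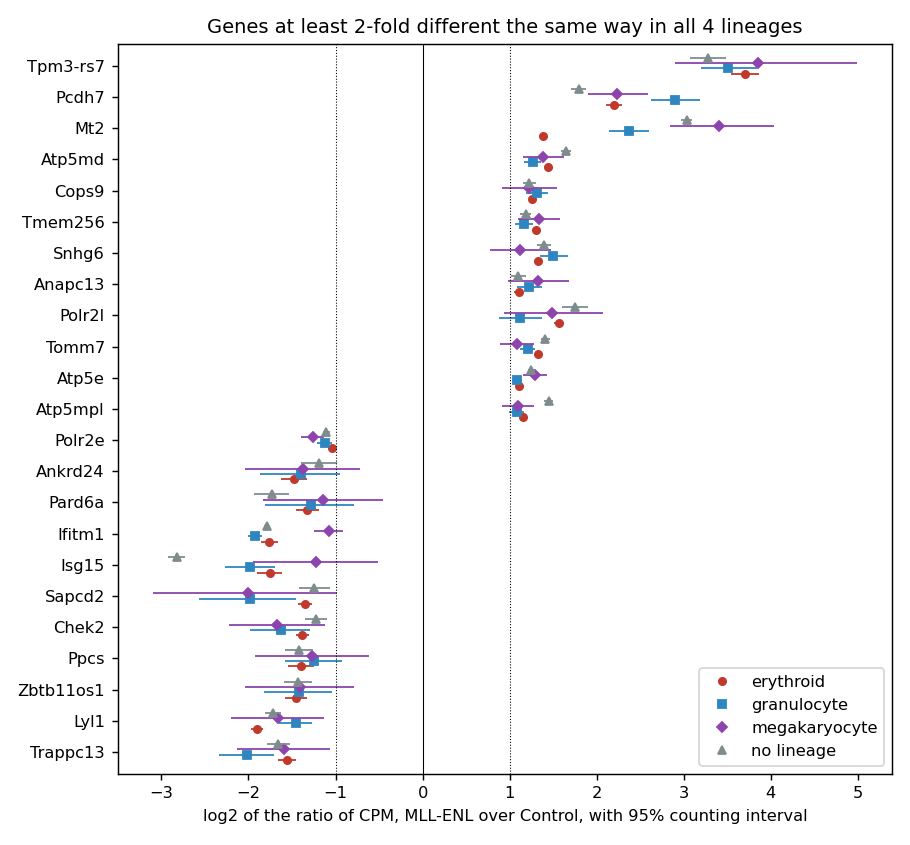
Each symbol is the log2 of the CPM ratio of MLL-ENL over Control (horizontal axis) for 1 gene (vertical axis) in 1 lineage, and bars are 95% counting intervals. Dotted lines mark 2-fold, and the 12 highest and 11 of the lowest named shared genes are drawn. Tpm3-rs7, Pcdh7 and Mt2 stand furthest to the right, and Isg15 in no-lineage cells furthest to the left.

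Among the shared higher genes were both measured metallothioneins, Mt1 and Mt2, small cysteine-rich proteins that bind zinc and copper and are induced by metals and glucocorticoids. Mt2 stood at 514, 14.7, 13.3 and 71.0 CPM in Control and at 1339, 75.8, 142 and 581 CPM in MLL-ENL. It was higher in every lineage, least in erythroid cells, where Control was already high. The folds were 2.61 (2.58 to 2.63), 5.16 (4.40 to 6.08), 10.6 (7.18 to 16.4) and 8.18 (7.84 to 8.53). With marker cuts doubled, which left 1865 and 560 erythroid cells, its smallest log2 ratio was 0.74 in place of 1.38, and it was no longer 2-fold in all 4 lineages. Mt1 went from 1036, 142, 122 and 218 CPM to 2159.5, 395, 378 and 1129 CPM, with folds of 2.08, 2.78, 3.11 and 5.18. The Skida1-deleted library held 1949, 131, 143 and 828 CPM of Mt2 and 2686, 577, 381 and 1394 CPM of Mt1. The third gene of that list, Mt3, did not reach the level needed for comparison.

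Erythroid cells hold the most metallothionein RNA, and liver cells are known to make it too, so the levels of both in the other lineages are given here. The 8 erythroid check markers summed to 161 CPM in granulocyte cells of Control and 93.0 CPM in those of MLL-ENL. In megakaryocyte cells they summed to 179 and 243 CPM, and in no-lineage cells to 699.9 and 762 CPM. Their members moved unlike each other. In granulocyte cells Tfrc, the transferrin receptor, went from 65.9 to 35.2 CPM, Hbb-bt, a beta globin, from 47.3 to 15.8 CPM and Car1, a carbonic anhydrase, from 36.7 to 23.5 CPM. Hba-a1, an alpha globin, went from 2.22 to 6.12 CPM there and from 2.96 to 28.2 CPM in no-lineage cells. The 8 hepatocyte markers summed to 7.75, 72.7, 12.8 and 32.3 CPM in Control and to 9.79, 77.7, 17.9 and 26.3 CPM in MLL-ENL. Most of the granulocyte value was Trf, at 67.8 and 70.7 CPM, while Alb was at most 1.54 CPM in Control and 2.21 CPM in MLL-ENL. The part of RNA from either cell type in the metallothionein values was not tested.

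Mt2 and Mt1 are neighbors on mouse chromosome 8, at 94172618 to 94173567 and 94178883 to 94180327 (GRCm38.p6), 5315 bases apart. Their promoters are shown because the pair moved together. The letters are those of RefSeq for GRCm38.p6, from 250 bases before the transcript start listed in its promoter table to 30 after it. That start is the first base of the Mt2 gene as given above, but lies 206 bases inside the Mt1 gene, whose listed span begins upstream of it. Capitals mark matches on either strand to TGCGCNC or TGCACNC, the core letters of the metal response element bound by the zinc-sensing factor MTF1, where N is any base. These letters were chosen after the genes were known, and matches may overlap each other.
Mt2 promoter (chr8:94172368-94172647, plus strand): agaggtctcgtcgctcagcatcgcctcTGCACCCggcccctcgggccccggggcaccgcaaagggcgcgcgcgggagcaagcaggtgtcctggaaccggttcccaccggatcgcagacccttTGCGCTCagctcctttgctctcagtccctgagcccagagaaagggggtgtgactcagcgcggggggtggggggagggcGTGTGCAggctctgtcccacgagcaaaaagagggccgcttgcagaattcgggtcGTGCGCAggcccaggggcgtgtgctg
Mt1 promoter (chr8:94178839-94179118, plus strand): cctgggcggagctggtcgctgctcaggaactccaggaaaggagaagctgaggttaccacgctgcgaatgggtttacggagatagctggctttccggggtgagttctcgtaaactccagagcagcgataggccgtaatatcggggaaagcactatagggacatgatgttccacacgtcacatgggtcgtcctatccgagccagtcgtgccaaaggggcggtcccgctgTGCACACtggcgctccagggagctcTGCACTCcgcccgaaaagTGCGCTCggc
The Mt2 promoter held 4 such matches and the Mt1 promoter 3. At least 1 match was found in 25.6% of the 27025 genes with a promoter in the reference table and in 38% of the 5388 compared genes with one, and at least 4 matches in 0.503% and 0.984%. A match is a description of the letters and not evidence of binding.

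Pcdh7, a cell-surface protocadherin whose gene lies on chromosome 5 at 57716145 to 58133236, was the highest shared gene apart from a pseudogene. It stood at 9.70, 9.71, 40.6 and 39.2 CPM in Control and at 44.4, 72.5, 191 and 136 CPM in MLL-ENL. By point value every lineage of MLL-ENL was above every lineage of Control, but the counting intervals of the closest pair overlapped. The folds were 4.58 (4.30 to 4.88), 7.46 (6.18 to 9.07), 4.71 (3.73 to 6.01) and 3.47 (3.27 to 3.68). The Skida1-deleted library, compared with the same Control, held 39.2, 64.8, 172 and 133 CPM.

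Tpm3-rs7, named as a sequence related to the tropomyosin gene Tpm3, had the largest shared ratio. Its counts were 358, 92, 9 and 210 UMIs in Control and 3834, 698, 271 and 4340 in MLL-ENL, or folds of 13, 11.4, 14.4 and 9.69. Reads of such a copy can be hard to separate from those of its parent, so this gene is uncertain. Tpm3 itself did not follow it, with log2 ratios of 0.12, -0.34, -0.18 and -0.38. Tsix, on the X chromosome, was also in the shared set, with log2 ratios of 1.42, 1.60, 2.01 and 1.27. It runs antisense to Xist, which stood at 569, 640, 777 and 938 CPM in Control, 840, 1253, 1274 and 1322 CPM in MLL-ENL and at most 6.13 CPM in the Skida1-deleted library. The sources used here do not state whether counting used strand, so the 2 transcripts cannot be told apart. By its Xist level the Skida1-deleted library differed from both compared libraries in the sex of its cells as well as in Skida1. Xist was also higher in MLL-ENL than in Control in each lineage. A different share of female cells in the compared libraries cannot be told apart from the fusion.

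**Figure D3:**
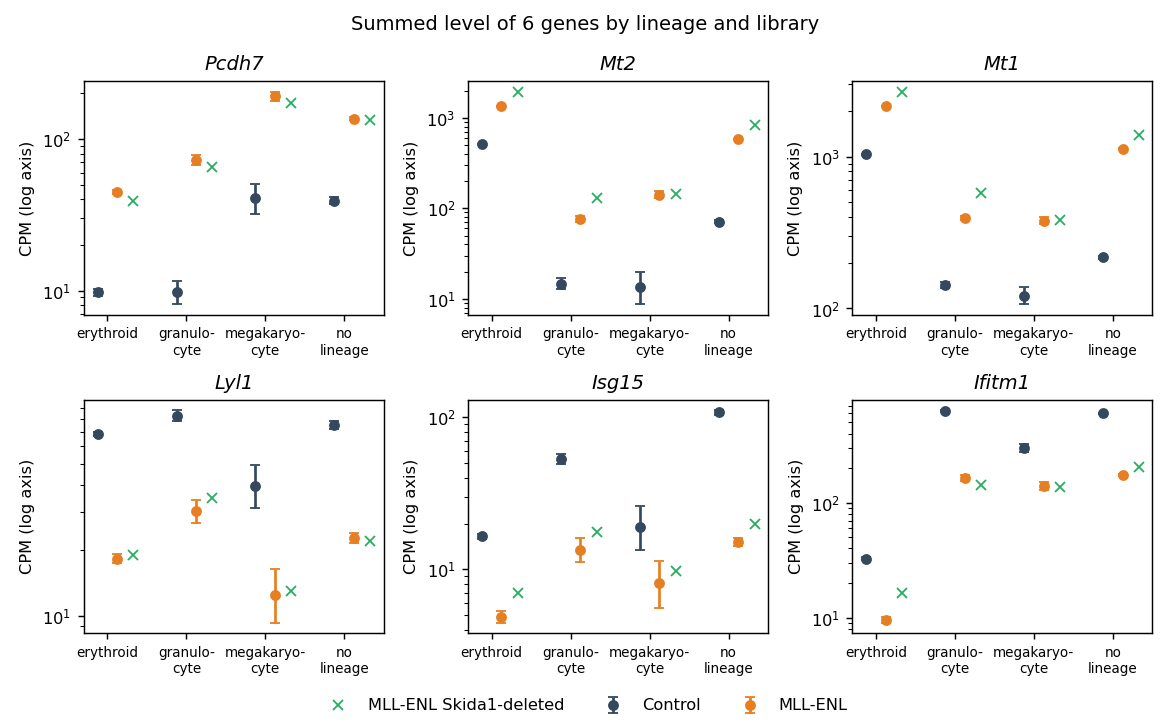
Level of 6 shared genes in CPM (vertical axis, log scale) in the 4 lineages (horizontal axis) of Control (dark), MLL-ENL (orange) and the Skida1-deleted library (green cross). Bars are 95% counting intervals. Pcdh7, Mt2 and Mt1 are higher and Lyl1, Isg15 and Ifitm1 lower in MLL-ENL than in Control in each lineage.

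The promoters of Pcdh7 and Atp5md, which with Mt2 are the 3 highest named shared genes in the promoter table, were searched for TGATNNAT, the type of site bound by HOX and PBX proteins together, and TGACAG, the type bound by MEIS proteins, on both strands. They are shown because MLL-ENL is known for activating HoxA genes and Meis1. Capitals would mark a match. The start used for Pcdh7 lies 1936 bases inside the gene's listed span, so its window is within the gene as annotated, and that of Atp5md is the gene's first base.
Pcdh7 promoter (chr5:57717831-57718110, plus strand): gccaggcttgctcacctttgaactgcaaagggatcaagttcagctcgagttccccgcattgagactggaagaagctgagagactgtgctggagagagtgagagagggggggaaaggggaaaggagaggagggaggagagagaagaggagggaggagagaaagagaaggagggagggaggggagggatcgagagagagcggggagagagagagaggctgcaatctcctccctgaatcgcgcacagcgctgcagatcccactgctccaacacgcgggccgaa
Atp5md promoter (chr19:47090618-47090897, minus strand): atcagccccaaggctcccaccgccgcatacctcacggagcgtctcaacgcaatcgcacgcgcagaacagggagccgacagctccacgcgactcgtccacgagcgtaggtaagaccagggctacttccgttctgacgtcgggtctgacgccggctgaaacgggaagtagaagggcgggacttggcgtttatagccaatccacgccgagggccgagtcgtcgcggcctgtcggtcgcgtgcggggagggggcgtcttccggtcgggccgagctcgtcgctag
Neither window held either motif. TGATNNAT was found in 0 of the 28 promoters of shared higher genes and 0 of 13 of shared lower genes, against 2.91% of the 5388 compared genes and 9.04% of all 27025. TGACAG was found in 17.9%, 15.4%, 15.9% and 19.3% of them. The median number of CG dinucleotides was 23.5 and 17 in the shared higher and lower promoters, 23 in the compared genes and 7 in all. That these letters are missing from a window says nothing about the factors.

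The largest group among the shared higher genes was ribosomal protein genes, which build the subunits of the cytosolic ribosome: 15 of the 39. Rps27 had the largest smallest ratio among them and went from 709, 692, 767 and 842 CPM in Control to 1795, 2017, 2065 and 2087 CPM in MLL-ENL. Rps29, which went from 1746, 1914, 2068 and 2048 CPM to 3663, 4318, 4391 and 4181 CPM, differed by nearly the same factor in all 4 lineages. The Skida1-deleted library held more of both, at 2937, 3425, 3432 and 3383 CPM of Rps27 and 6975, 8775, 8606 and 7949 CPM of Rps29.

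The ribosomal protein genes did not move as one. Of the 80 compared, 52 had a ratio above 0 in all 4 lineages, 22 had one below 0 in all 4, and 6 were mixed. These are 65% and 27.5%, against 16.2% and 43.8% of all genes. Their median log2 ratio was 0.44, 0.57, 0.49 and 0.45, against -0.13, -0.20, -0.16 and -0.15 over all genes. Rplp0, which encodes a protein of the ribosomal stalk, went from 9559, 7823, 7680 and 8418 CPM in Control to 5977, 5182, 4967 and 5529 CPM in MLL-ENL. Rpl3, a protein of the large subunit, had log2 ratios of -0.79, -0.53, -0.68 and -0.72. Members of 1 machine thus differed in opposite directions, in the same direction for a given gene in all 4 lineages. Many of these genes have near-identical processed copies elsewhere in the genome, so their counts are uncertain to that extent.

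A second group encodes small subunits of the mitochondrial inner and outer membrane: 8 of the 39, grouped after their names were seen. They were Atp5e, Atp5md and Atp5mpl of the ATP synthase, Ndufa1 and Ndufa3 of complex I, the complex IV assembly factor Cox20, the import protein Tomm7 and Romo1. Atp5e stood at 264, 285, 273 and 241 CPM in Control and at 568, 603, 667 and 573 CPM in MLL-ENL, without overlap. The log2 ratios of the 8 lay between 1.04 and 1.43 in erythroid, 1.03 and 1.26 in granulocyte, 1.08 and 1.37 in megakaryocyte and 1.17 and 1.63 in no-lineage cells. In the wider list of oxidative phosphorylation genes, 3 of 29 were shared higher, 20 had a ratio above 0 in all 4 lineages and 4 had one below 0 in all 4, or 69% and 13.8%, against 16.2% and 43.8% of all genes. Cox7c, a complex IV subunit, was short of the threshold in granulocyte cells alone, at 0.97, with 1.12, 1.19 and 1.27 elsewhere. The list's median was 0.70, 0.57, 0.56 and 0.88. The 13 genes encoded in the mitochondrial genome had medians of 0.065, 0.21, 0.058 and 0.047, and none of them was in the shared set.

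Host genes of small nucleolar RNAs, which guide the modification of ribosomal RNA, were also mostly higher: 8 of 10 had a ratio above 0 in all 4 lineages, against 16.2% of all genes, and 1 was in the shared set. That gene, Snhg6, stood at 39.1, 36, 43.6 and 43.4 CPM in Control and at 98, 102, 95 and 114 CPM in MLL-ENL. The Skida1-deleted library, compared with the same Control, held 52.3, 50.0, 55.5 and 58.7 CPM. Snhg3 and Epb41l4aos had log2 ratios of 0.92, 0.54, 1.14 and 1.81 and of 0.96, 1.19, 1.19 and 1.11.

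The other named shared higher genes have unlike roles. Polr2l, a small subunit common to the RNA polymerases, went from 24.1, 17.6, 16.4 and 13.4 CPM in Control to 71.2, 38.5, 45.9 and 45.2 CPM in MLL-ENL. Anapc13, a subunit of the anaphase-promoting complex, and Cops9, of the COP9 signalosome, had log2 ratios of 1.08, 1.21, 1.30 and 1.08 and of 1.253, 1.30, 1.21 and 1.21. Per1, a repressor of the circadian clock, stood just past the threshold at 1.01, 1.12, 1.16 and 1.54. Polr2e, another subunit common to the RNA polymerases, was in the shared lower set, at -1.04, -1.12, -1.26 and -1.10.

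Shared higher genes were short on the genome. Their median genomic span was 2983 bases, against 22033.5 bases over compared genes, and 78.9% of them spanned under 5 kb, against 12.2%. Without the ribosomal protein genes, 15 of 23 with a span were under 5 kb, or 65.2%. Shared lower genes were short as well, with a median of 3500.5 bases and 64.3% under 5 kb. The tenth of genes with the shortest span had median log2 ratios of -0.24, -0.23, -0.16 and -0.15, against -0.13, -0.20, -0.16 and -0.15 over compared genes. The span is that of the gene with its introns, since transcript lengths were not used here. The part of gene length in the shared set was not tested.

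Lyl1 was among the most strongly lower of the shared genes. It encodes a basic helix-loop-helix transcription factor that acts with its relative TAL1 in blood stem and progenitor cells, and lies on chromosome 8 at 84701423 to 84704716. It stood at 68.4, 83.0, 39.5 and 75.1 CPM in Control and at 18.3, 30.2, 12.5 and 22.8 CPM in MLL-ENL. By point value all lineages of MLL-ENL were below all lineages of Control, but the counting intervals of the closest pair overlapped. The folds were 0.268 (0.255 to 0.282), 0.364 (0.318 to 0.416), 0.317 (0.218 to 0.457) and 0.304 (0.285 to 0.324). The Skida1-deleted library held 19, 34.7, 13 and 22.2 CPM. Tal1 had log2 ratios of -0.18, 0.05, -0.23 and 0.04 and was in neither set.

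Among the shared lower genes were 2 induced by interferon. Isg15, a ubiquitin-like protein that is joined to other proteins after interferon signaling, stood at 16.5, 53, 19 and 108 CPM in Control and at 4.88, 13.5, 8.10 and 15.2 CPM in MLL-ENL. Ifitm1, a membrane protein that limits virus entry and is also abundant in early progenitors, went from 32.6, 625, 297 and 600 CPM to 9.62, 164, 141 and 173 CPM. Both were lower in each lineage, and Isg15 was furthest below in no-lineage cells, with folds of 0.296, 0.254, 0.426 and 0.141. Both sat close to the threshold: the smallest log2 ratio of Isg15 was -1.14, and -0.55 after thinning every cell to 5000 UMIs, and that of Ifitm1 was -1.07, and -0.76 without the 5% deepest cells. The Skida1-deleted library, compared with the same Control, held 6.96, 17.7, 9.77 and 19.9 CPM of Isg15 and 16.4, 143, 137 and 204 CPM of Ifitm1.

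The rest of the interferon response lay nearer to genes in general. Of 20 compared genes of that list, 2 were shared lower. Of the other 18, 10 had a ratio below 0 in all 4 lineages, or 55.6%, against 43.8% of all genes, and 1 had one above 0 in all 4. The list's median log2 ratio was -0.29, -0.32, -0.31 and -0.60. Ifitm3 had ratios of -0.85, -1.04, -0.35 and -1.21. Irf7, the transcription factor that amplifies interferon production, had ratios of -0.46, -0.48, -0.86 and -1.07. MHC class I genes, which present peptides and are raised by interferon, were in no shared set, and 4 of 9 were below 0 in all 4 lineages, or 44.4%, near the 43.8% of all genes. Their median was -0.39, 0.015, -0.27 and -0.64, above 0 in granulocyte cells. H2-D1, one of the 4 below 0 throughout, had ratios of -0.75, -0.78, -0.93 and -1.17. The 8 macrophage markers moved the same way, at 2.81, 7.41, 24.1 and 7.23 CPM in Control and 1.12, 4.56, 3.19 and 1.73 CPM in MLL-ENL, and their part was not tested.

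Trappc13, a subunit of a complex that tethers transport vesicles, was the lowest shared gene by its smallest ratio, from 27.2, 45, 38.5 and 33.9 CPM to 9.25, 11.1, 12.8 and 10.8 CPM. Chek2, a kinase of the DNA damage checkpoint, went from 47.6, 29.9, 37.5 and 33.5 CPM to 18.3, 9.67, 11.8 and 14.4 CPM. Ppcs, an enzyme of coenzyme A synthesis, had log2 ratios of -1.23, -1.17, -1.19 and -1.32, and Mlycd, malonyl-CoA decarboxylase, had -1.60, -1.21, -1.003 and -1.06. Pard6a, a cell polarity protein, had -1.19, -1.13, -1.06 and -1.55, and Ankrd24 had -1.30, -1.26, -1.29 and -1.05. The antisense transcript Zbtb11os1 had the narrowest spread of the named genes, from -1.33 to -1.32. Sapcd2, which takes part in orienting the mitotic spindle, rested on few counts in megakaryocyte cells, 25 UMIs in Control and 13 in MLL-ENL.

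**Figure D4:**
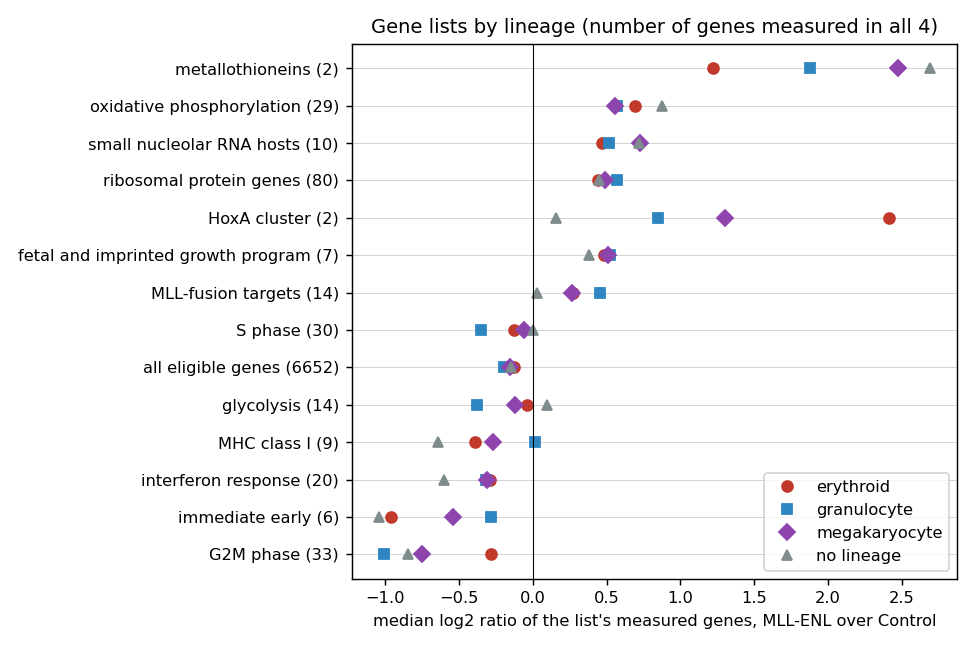
Median log2 ratio of MLL-ENL over Control (horizontal axis) for gene lists (vertical axis, with the number of genes compared) in each lineage (symbols). Metallothioneins, oxidative phosphorylation and small nucleolar RNA hosts lie to the right and G2M genes to the left in all 4 lineages, while HoxA values spread from 0.16 in no-lineage to 2.42 in erythroid cells.

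Of 14 compared targets of MLL fusions 7 had a ratio above 0 in all 4 lineages, or 50%, against 16.2% of all genes. None was at least 2-fold higher in all 4, where 0.586% of all genes were, so a list of this size is too short to differ from that share. Hoxa9, a homeobox factor central to MLL-fusion leukemia, stood at 4.70, 34.6, 19.5 and 71.1 CPM in Control and at 34.7, 67.4, 61.6 and 86.6 CPM in MLL-ENL. Control cells differed widely by lineage and MLL-ENL cells less. The folds were 7.40 (6.79 to 8.08), 1.95 (1.73 to 2.21), 3.16 (2.24 to 4.57) and 1.22 (1.16 to 1.28), so erythroid cells differed most and no-lineage cells least. Hoxa7 gave the same order, with log2 ratios of 2.18, 0.75, 1.0 and 0.03. Meis1, the partner of HoxA proteins, had 0.65, 1.02, -0.07 and -0.15. Hoxa10, below the level for comparison in granulocyte and erythroid cells, went from 0.37, 0.67, 8.21 and 7.63 CPM to 5.42, 4.89, 18.4 and 14.2 CPM.

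Other genes of this kind were nearer to shared. Mbnl1, a splicing regulator and known fusion target, had log2 ratios of 0.67, 0.62, 0.83 and 0.59, the most even of those named. Igf2bp2, an RNA-binding protein of fetal cells, had 1.84, 0.97, 1.18 and 0.55, and Lin28b, the regulator of fetal blood formation, had 0.48, 0.56, 1.06 and 0.89. The transcription factor gene Mecom, too low in erythroid and granulocyte cells to be compared, went from 1.0, 2.22, 9.75 and 23.2 CPM to 2.71, 7.45, 46.9 and 41.8 CPM. In the Skida1-deleted library it stood at 5.19, 18.9, 69.7 and 60.4 CPM.

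Genes of mitosis were lower in all lineages, but unevenly. Of 33 compared genes of the G2M list, 29 had a ratio below 0 in all 4 lineages, or 87.9%, against 43.8% of all genes. At least 1.5-fold lower in all 4 were 5, or 15.2%, against 3.04%, and none passed 2-fold in all 4, where 0.225% of all genes did. The list's median was -0.29, -1.01, -0.75 and -0.85, and 0, 17, 8 and 11 of the 33 were at least 2-fold lower. Plk1, the mitotic kinase, went from 69.3, 48.6, 64.2 and 43.0 CPM to 42.2, 11.9, 24.5 and 17.2 CPM. Cdc20, an activator of the anaphase-promoting complex, had log2 ratios of -0.64, -1.39, -1.25 and -1.05. S phase genes had medians of -0.13, -0.35, -0.06 and 0.0044, and none of the 30 was in a shared set. Clustered histone genes moved both ways: Hist1h2ap had 1.79, 0.95, 1.67 and 1.35, and Hist1h1b had -0.62, -1.47, -0.69 and -0.88.

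These directions were checked under 2 other scalings, centering on the median gene and totals without mitochondrial, ribosomal protein and hemoglobin genes, which raise all ratios by 0.13, 0.20, 0.16 and 0.15 and by about 0.08, 0.16, 0.10 and 0.10. Such a shift can change the sign of a value below 0 only. The medians of the interferon and G2M lists stayed below 0 in all 4 lineages under both, and those of the MHC class I list in the 3 lineages where they had been. Counts moved: with centering, ribosomal protein genes below 0 in all 4 went from 22 to 13, interferon genes from 12 to 8 and G2M genes from 29 to 24, while all genes below 0 in all 4 went from 2916 to 1790. The medians of S phase genes changed sign in 2 lineages with centering and in 1 with the other totals. No member was shared in either direction among 17 Polycomb genes, 18 genes of MLL and elongation complexes, 26 of ribosome biogenesis, 14 of glycolysis, 11 of cholesterol synthesis, 6 p53 targets and 7 of the BCL2 family. With 0.586% and 0.225% of all genes shared, lists this short would hold a shared gene seldom, and nothing about them is read from it.

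Genes limited to 1 lineage were few under a strict definition. At least 2-fold in 1 lineage and a log2 ratio under 0.32 in size in the other 3 was met by 6 genes, or 0.0902%. In megakaryocyte cells these were Tmem120a, Ercc6 and Slc25a32, which were lower, with log2 ratios of -1.70, -1.18 and -1.02, and Atg7 and Morn2, which were higher, both at 1.13. They rested on 11 to 37 UMIs in the 94 Control cells, and their fold intervals were wide, 0.151 to 0.476 for Tmem120a and 1.24 to 5.06 for Atg7. Cenpv, which acts at centromeres, was the 1 case in no-lineage cells. It stood at 179, 66.4, 29.8 and 46.7 CPM in Control and 169, 66.9, 33.6 and 98.6 CPM in MLL-ENL. Its fold in no-lineage cells was 2.11 (2.0 to 2.23).

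With under 1.5-fold allowed in the other 3 lineages, a definition added after the data were seen, 53 genes qualified. Of these, 23 were lower and 8 higher in megakaryocyte cells, 9 and 1 in granulocyte, 5 and 5 in no-lineage, and 1 and 1 in erythroid cells, and the lineage with the fewest Control cells had the most. Those lower in granulocyte cells included Srm, spermidine synthase, at -1.10, Sqle of cholesterol synthesis at -1.21 and Mthfd2 of mitochondrial folate metabolism at -1.14. In no-lineage cells the heme enzymes Cpox and Blvrb were higher, at 1.52 and 1.15. Cpox went from 458, 31.6, 39.0 and 52.2 CPM in Control to 515, 32.6, 55.5 and 152 CPM in MLL-ENL. Cst3 and Capg, both abundant in monocytic and dendritic cells, were lower there, at -1.32 and -1.19. In erythroid cells Apoe was lower, at -1.14, and Hist1h2bm higher, at 1.03. These genes were picked after their values were seen.

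Lists of genes made by some lineages only were counted in each lineage where they were measured, at 10 CPM in either library in that lineage. A gene could thus enter through 1 library alone, which favors members that were high in it. The share of all genes past 2-fold under this rule was not counted. The shares given above are for genes measured in all 4 lineages, so these counts have no background beside them. All 5 monocyte and dendritic genes measured in no-lineage cells were at least 2-fold lower, with a median log2 ratio of -2.92, as were 4 of 8 in granulocyte cells. Of the MHC class II genes 5 of 7 were at least 2-fold lower in no-lineage cells, and H2-Ab1, one of them, had 0.39, 0.74, 0.49 and -1.15. Of B-lineage genes 4 of 7 were at least 2-fold lower in no-lineage cells and 4 of 4 in megakaryocyte cells. The B-lineage markers Vpreb1, Vpreb3 and Cd79a stood at 10.3, 11.3 and 10.8 CPM in the 94 megakaryocyte cells of Control. In those of MLL-ENL they stood at 1.96, 4.66 and 1.23 CPM. They reached 10 CPM there in Control alone, so the count of 4 favors lower genes and nothing is read from it. Of erythroid program genes, 7 of 21 were at least 2-fold higher in no-lineage cells and 3 of 18 in megakaryocyte cells. In granulocyte and erythroid cells 0 of 14 and 0 of 23 were. No marker of the lineage rule was removed from these lists, although the sums of that rule define the no-lineage cells. For these reasons no direction is read from any of the counts in this paragraph. Doubling the marker cuts took erythroid cells from 3160 to 1865 in Control and from 3584 to 560 in MLL-ENL. The part of erythroid cells just below the cut in the no-lineage values was not tested.

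One gene differed in opposite directions, 0.015% of those compared. Asns, which makes asparagine and responds to amino acid shortage, stood at 301, 39.9, 32.9 and 26.8 CPM in Control and at 219, 18.2, 47.4 and 65.8 CPM in MLL-ENL. Its folds were 0.726 (0.715 to 0.738), 0.457 (0.381 to 0.545), 1.44 (1.08 to 1.94) and 2.46 (2.29 to 2.64), so it was lower in erythroid and granulocyte cells and higher in the others. It sat close to the threshold on its lower side, and it was not called with centering, with the other totals or with a pseudocount of 5. With cell means, with doubled or halved marker cuts and in cells with a low G2M sum it was not called either, and the genes called there, 1, 1, 1 and 14, were others.

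Surface tags gave a readout that the lineage rule had not used. Of 10 antibody tags, Sca-1 alone was at least 1.5-fold lower by median in all 4 lineages. Its median count per cell was 40, 72, 63 and 207 in Control and 20, 25, 24.5 and 33 in MLL-ENL, with ratios of 0.50, 0.347, 0.389 and 0.159. The Skida1-deleted library had medians of 16, 22, 19 and 32. Cells spread widely: in no-lineage cells the quartiles were 58 and 525 in Control and 18 and 134 in MLL-ENL. Sca-1 is a surface protein of stem cells that interferon raises, and its gene Ly6a went from 1.20, 5.78, 2.57 and 36.2 CPM to 0.48, 1.0, 0.74 and 9.49 CPM, on 5 and 3 UMIs in megakaryocyte cells.

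**Figure D5:**
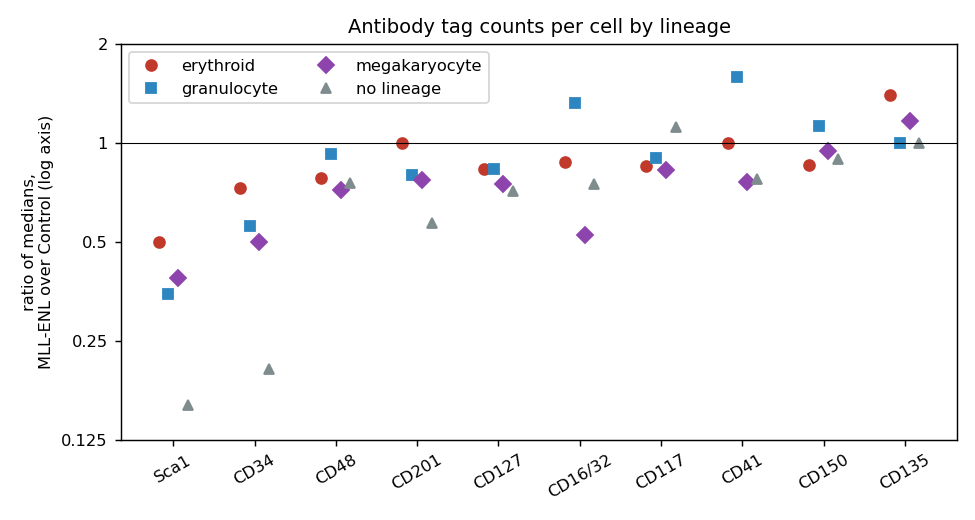
Ratio of the median tag count per cell in MLL-ENL over Control (vertical axis, log scale) for 10 antibody tags (horizontal axis) in the 4 lineages (symbols). Sca-1 lies at or below 0.50 in each lineage, CD34 between 0.205 and 0.727, and most other tags nearer 1.

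CD34, a surface protein of early progenitors, was lower in all 4 lineages too, by unequal amounts, with medians of 11, 120, 18 and 63.5 in Control and 8, 67, 9 and 13 in MLL-ENL. CD48 was lower as a tag by less, with ratios of 0.781, 0.927, 0.718 and 0.756, than as RNA, where Cd48 had folds of 0.63, 0.605, 0.389 and 0.351. CD117, the KIT protein by which the cells were sorted, had ratios of 0.85, 0.899, 0.829 and 1.12. Total tags per cell were also lower in MLL-ENL, with medians of 1967, 3446, 3299 and 3122 in Control and 1542, 3094, 2391 and 2395 in MLL-ENL. CD16/32 differed by lineage, with a ratio of 1.32 in granulocyte and 0.525 in megakaryocyte cells.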

How the data were processed

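The samples were 3 CITE-seq libraries made with 10x 3' chemistry (v3.1), 1 per group. The deposited matrices hold raw UMI counts of 32285 genes and 10 antibody tags per barcode, which the authors made with Cell Ranger against mm10. The file headers name version 6.1.2 and the submitters' processing notes 6.0.1. The sources used here do not state whether the authors removed doublets, and no doublet caller was run. The cells dropped for meeting 2 lineages were 31 in Control and 39 in MLL-ENL. Counts were summed per lineage and library with Python 3.11.15, numpy 2.4.6, scipy 1.17.1 and pandas 2.3.3, and divided by the sum of gene counts. Gene counts over all barcodes came to 180656900 for Control and 198773992 for MLL-ENL. A pseudocount of 1 CPM was added before log2 ratios. Intervals are exact Poisson for CPM and exact conditional binomial for folds, at 95%, and cover counting error only. The calling step was run on counts simulated from Control, with planted changes larger than 2-fold and no other difference between libraries. That run checks only that the code finds such changes, and not the calls made here. Of the 38 gene lists, those with too few genes at 10 CPM in all 4 lineages have no shared value. Up to 4 members of a list were named, those with the largest mean ratio. One gene that the naming rule selected is not reported here. The members and lists were chosen with earlier results of these data known. Where 2 genes share a symbol, they were kept apart by identifier. Gene positions and promoters come from RefSeq tables of GRCm38.p6 (mm10). The alternatives tried were the fold, the pseudocount, the minimum CPM, thinning, cell means, centering, other totals, marker cuts, UMI limits and subsets of cells.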

Additional observations from a re-analysis of the deposited data

Results flagged for a closer look

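Asns stood apart between lineages under the same comparison: its log2 ratio of MLL-ENL over Control was 1.27 in no-lineage cells and -1.09 in granulocyte cells, a gap of 2.35. With 1 library in each group, the difference between the lineages was not tested. Asns was not called opposed with centering, other totals, a pseudocount of 5, a 3-fold threshold, cell means, doubled or halved marker cuts, or in cells with a low G2M sum.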

How the results depend on the processing

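No paired analysis was possible because each group has 1 library, and no replicate could be left out. The counts of genes higher in all 4 lineages, lower in all 4, limited to 1 and opposed were 39, 15, 6 and 1. With 1.5-fold they were 147, 202, 218 and 15, and with 3-fold 2, 0, 1 and 0. A pseudocount of 5 gave 4 lower and 0 opposed genes. A minimum of 5 CPM gave 18 limited genes, a minimum of 30 CPM 3 lower and 1 limited, and no minimum 27 lower, 235 limited and 13 opposed. Thinning every cell to 5000 UMIs gave 72 limited and 5 opposed genes, and cell means 12 limited. Centering on the median gene gave 76 higher, 5 lower and 0 opposed. Totals without mitochondrial, ribosomal protein and hemoglobin genes gave 68 higher, 20 limited and 0 opposed. Doubled marker cuts gave 27 limited genes, at least 10000 UMIs 10, and leaving out the 5% deepest cells 16 limited and 2 opposed. Cells with a low G2M sum gave 108 limited and 14 opposed, and of their 26 higher and 19 lower genes 23 and 4 were in the sets reported. That limit left only 90, 76, 31 and 705 cells in Control and 70, 243, 97 and 1608 in MLL-ENL. Counting error is wide there, so the part of cell cycling in the sets cannot be read from it. In those cells Sapcd2 reversed, with a smallest log2 ratio of 0.36. Alternatives added after the data were seen were leaving out megakaryocyte cells, with 28 lower and 14 limited genes, not counting ribosomal protein genes, with 24 higher, and under 1.5-fold in the other 3 lineages, with 53 limited. Means in place of medians gave 2 tags in place of 1. The cause of these changes was not tested. Under every setting not named above for higher genes, their count lay between 26 and 47. Among the 24 named shared genes, 16 passed 2-fold in all 4 lineages after thinning and 11 in cells with a low G2M sum. Under all 14 alternatives that kept the 2-fold threshold and were run for single genes, 6 of the 24 passed, namely Tpm3-rs7, Pcdh7, Atp5md, Cops9, Tmem256 and Trappc13. The limit on hemoglobin removed no erythroid cell. The 94 megakaryocyte cells of Control held 1947991 UMIs, and counting error there is wide.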
